A study of Mus musculus with 2 samples.

Results

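The genes of the cytosolic ribosomal proteins were compared between beta cells of CSE-KO mice and of CSE-WT mice, both fed a high-fat diet. Members were the gene names in the array files that read Rpl or Rps followed by a protein number (with an optional a, l or x), p0 to p2 or a, so that mitochondrial ribosomal proteins and ribosomal protein kinases stayed out. This gave 81 of the 34741 gene names on the array, 49 of the large subunit (Rpl) and 32 of the small subunit (Rps), represented by 186 of the 55681 gene probes on each array. Of these, 78 genes were measured on both arrays, among 22134 measured genes in all. Levels in CSE-KO ran from 86.7% of the CSE-WT level for Rps21 to 106.7% for Rpl13, and every other measured member lay between these. The probes of Rpl13 disagreed in sign.

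The CSE-KO sample came from C57BL/6J mice, 6 months old and on the diet, that lack cystathionine gamma-lyase. This enzyme of transsulfuration, encoded by Cth, makes hydrogen sulfide from cysteine. The CSE-WT sample came from wild-type mice of the same strain, age and diet and is named as the control. Total RNA labelled with Cy3 was hybridised to 1 array per genotype, and both arrays lay on 1 slide. The sources used here give neither the allele, nor the number of animals per sample, nor whether beta cells were purified from islets. With 1 array per genotype there is no replicate and no test, so every value below describes these 2 samples.

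The ribosome translates mRNA into protein. Its small subunit reads the codons, its large subunit joins the amino acids, and the ribosomal proteins hold the ribosomal RNA in shape. The mRNAs of these proteins belong to the most abundant of most cells and begin with a short stretch of C and T bases, the 5′ terminal oligopyrimidine (TOP) motif, through which mTORC1 and LARP1 control their translation as a group. Beta cells, which make very large amounts of proinsulin, depend on a high capacity for protein synthesis.

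Cth could not be used to check the genotype, since both of its probes were not well above background on either array (3.15 and 3.68 intensity units in CSE-KO, against 13.5 and 12.8 in CSE-WT). The 95th percentile of negative controls was 3.43 in CSE-KO and 4.32 in CSE-WT. Both probes lay above it in CSE-WT and on either side of it in CSE-KO. Both libraries held RNA of other pancreatic cells. Summed intensities here are not scaled between the arrays, whereas the log2 differences are. The 75th percentile used for that scaling was 540 units in CSE-KO and 519 in CSE-WT. All 10 beta-cell markers were measured, and their summed intensity in CSE-KO was 0.964 times that in CSE-WT. The sum over 11 acinar markers was 0.977 times, and that over 5 alpha-cell markers 0.921 times, the CSE-WT sum. All 5 alpha-cell markers were lower in CSE-KO, with a median difference of -0.62 on the log2 scale and a range of -0.66 to -0.14. All 7 macrophage markers and all 4 measured fibroblast markers of 6 (Lum and Pdgfra were not measured) were higher in CSE-KO, with summed intensities of 15381 in CSE-KO and 11951 in CSE-WT for macrophages and of 1806 in CSE-KO and 1143 in CSE-WT for fibroblasts, and the sum over 3 erythroid markers was 0.751 times. Their part in the differences below was not tested. Fewer cells of a type and less RNA per cell cannot be told apart in such samples.

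The probes of the paralogs Rps27l, Rpl10l and Rpl3l are shown here with those of the widely used Rpl10 and Rpl39, because Rpl10l and Rpl3l are among the 3 members that gave no measurable signal. Rps27l is a relative of Rps27 that p53 induces, Rpl10l a retrogene of Rpl10 used in the testis, and Rpl3l a relative of Rpl3 found in heart and skeletal muscle. The probe sequences are those of the array files, and their positions are on mouse build mm9. The Rps27l probe spans an intron at chr9:66795486-66797176 on the plus strand, and the Rpl39 probe one at chrX:34622696-34623990 on the minus strand. The Rpl10 probe lies at chrX:71518307-71518366 on the plus strand, the Rpl10l probe at chr12:67384868-67384927 on the minus strand, and the Rpl3l probe spans an intron at chr17:24872413-24872681 on the plus strand.
Rps27l: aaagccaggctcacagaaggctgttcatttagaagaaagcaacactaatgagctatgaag
Rpl39: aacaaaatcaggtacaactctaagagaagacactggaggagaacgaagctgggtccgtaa
Rpl10: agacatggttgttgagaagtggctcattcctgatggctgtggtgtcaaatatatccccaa
Rpl10l: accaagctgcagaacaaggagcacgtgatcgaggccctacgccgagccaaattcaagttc
Rpl3l: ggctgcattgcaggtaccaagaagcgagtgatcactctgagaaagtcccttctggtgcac

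Rpl10l, Rpl39l and Rpl3l were the 3 members that did not count as measured, by the flag in the files for signals well above background. The Rpl10l probe shown gave 11.2 intensity units in CSE-KO and 6.73 in CSE-WT. The single Rpl39l probe gave 3.47 units in CSE-KO and 4.22 in CSE-WT, and Rpl39l is known from the testis. The single Rpl3l probe gave 3.39 units in CSE-KO and 13.0 in CSE-WT, and it lay in a patch of the CSE-WT array where neighbouring spots were also bright. No fold is given for these genes, since both arrays were near background. Rps27l was measured, at 27742 units in CSE-KO and 26238 in CSE-WT, and the Rpl10 probe shown gave 260596 units in CSE-KO and 255048 in CSE-WT. These intensity units are not scaled between the arrays, unlike the levels given below. Intensities of different probes are not amounts of transcript and are not compared with each other.

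The proximal promoters of Rps27l, Rpl39l and Rpl10l and of their widely used partners are shown with C and T stretches near the annotated start. Those of Rps21 and Rps18 are added because both are among the members named below. Each line holds 60 bases before and 20 bases from the annotated start on, from RefSeq on build GRCm38.p6, on the strand of the gene. Capitals mark the longest uninterrupted run of C and T within 20 bases on either side of the start, or the first of equally long runs, as in Rpl39. The marked run crosses the annotated start in Rps27, Rps21 and Rps18. It lies before the start in Rps27l, Rpl39l, Rpl39 and Rpl10l and after it in Rpl10. A marked run is therefore not by itself a TOP motif. The windows lie at chr9:66946026-66946105 (plus strand, the first of 2 starts listed) for Rps27l, chr3:90213629-90213708 (minus) for Rps27, chr16:10170168-10170247 (plus) for Rpl39l, chrX:37085203-37085282 (minus) for Rpl39, chr12:66284382-66284461 (minus) for Rpl10l, chrX:74270756-74270835 (plus) for Rpl10, chr2:180257319-180257398 (plus, the first of 2) for Rps21 and chr17:33955646-33955725 (minus) for Rps18.
Rps27l: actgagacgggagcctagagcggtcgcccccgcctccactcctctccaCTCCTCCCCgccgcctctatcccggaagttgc
Rps27: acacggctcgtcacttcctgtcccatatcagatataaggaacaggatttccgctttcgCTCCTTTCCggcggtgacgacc
Rpl39l: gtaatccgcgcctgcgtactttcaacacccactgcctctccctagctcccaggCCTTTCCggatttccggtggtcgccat
Rpl39: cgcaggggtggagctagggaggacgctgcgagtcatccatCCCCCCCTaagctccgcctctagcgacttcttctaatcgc
Rpl10l: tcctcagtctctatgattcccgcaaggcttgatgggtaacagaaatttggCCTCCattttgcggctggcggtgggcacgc
Rpl10: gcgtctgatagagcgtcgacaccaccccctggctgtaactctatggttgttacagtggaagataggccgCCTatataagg
Rps21: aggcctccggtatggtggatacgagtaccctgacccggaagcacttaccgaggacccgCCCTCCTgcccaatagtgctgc
Rps18: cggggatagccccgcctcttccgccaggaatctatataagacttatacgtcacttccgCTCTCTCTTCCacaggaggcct

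Promoters were listed for 58 of the 78 measured members and for 27025 genes in all. A run of at least 10 C and T bases within 20 bases of the start was present in 22 of the 58 members (37.9%), against 8.61% of all genes, and the median longest run was 7.5 bases in members and 5 in all genes. Within the 300 listed bases (250 before the start and 50 after) the motif CCGGAAG or its reverse complement CTTCCGG, letters of the kind that ETS-family factors bind, stood in 25 of the 58 members (43.1%) and in 9.93% of all genes. TATAAA or its reverse complement TTTATA stood in 6 members (10.3%) and 15.7% of all genes. A match of CCGGAAG or CTTCCGG cannot overlap one of TATAAA or TTTATA, but each motif can overlap its own reverse complement. These shares describe the reference sequence and say nothing of binding in these cells.

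Levels are given as log2 of the processed intensity minus the 75th percentile of gene probes on the same array, and differences as CSE-KO minus CSE-WT on that log2 scale. For a gene with several probes the measured probe with the highest mean level was used. The chosen probes ranged in level over 5.13 to 8.92 in CSE-KO and 5.19 to 8.94 in CSE-WT, with medians of 7.15 in CSE-KO and 7.23 in CSE-WT. Across the 78 genes, which share the same 2 arrays, the levels in CSE-KO and CSE-WT correlated at Pearson r = 0.998. The level of a gene also carries the brightness of its probe, so the order in the plot of levels is not an order of transcript amounts.

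**Figure D1:**
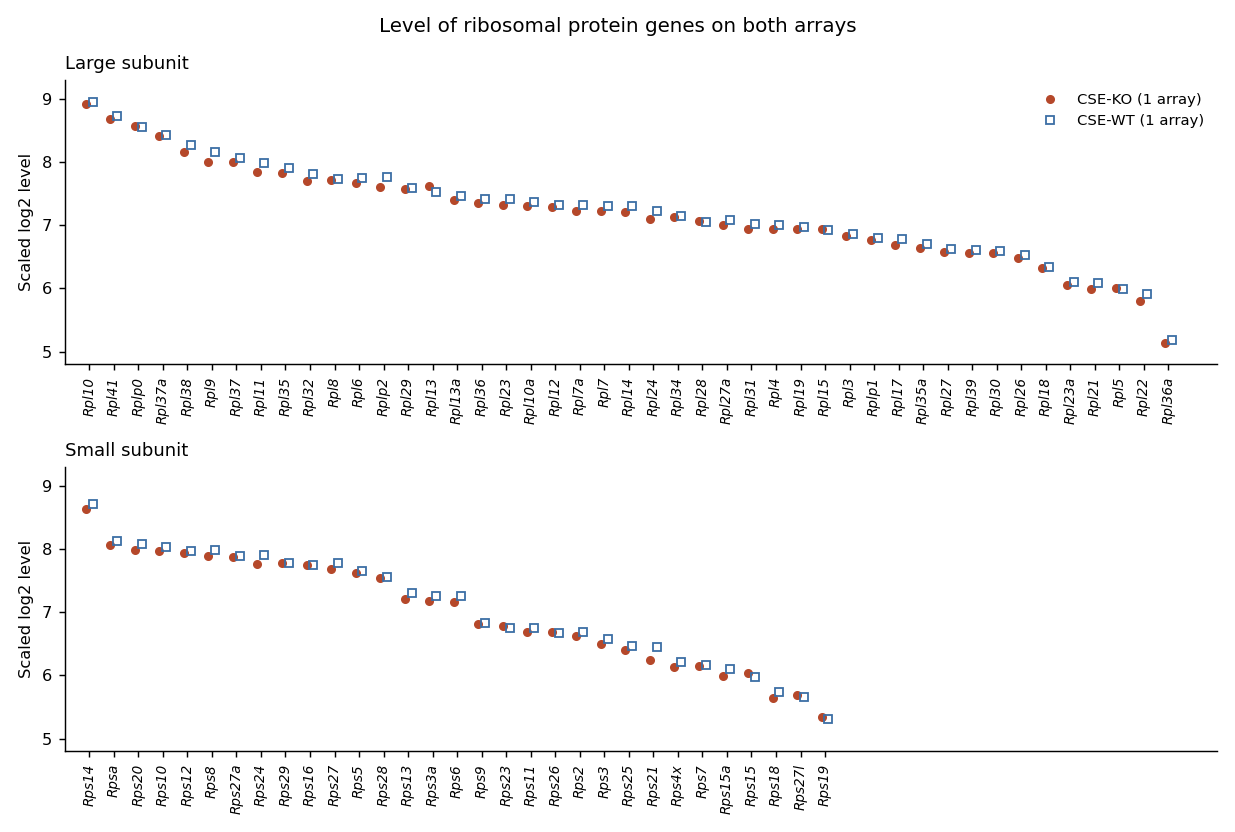
Scaled log2 level (vertical axis) of 76 measured ribosomal protein genes, in CSE-KO (filled circles, left) and CSE-WT (open squares, right), 1 array each, sorted within each subunit by mean level. The 2 marks of a gene lie at most 0.21 apart on an axis that spans 5.13 to 8.94, and the order of genes reflects probe brightness as well as abundance.

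None of the 78 measured members differed 2-fold between the genotypes, against 1.61% of all measured genes. All 78 members lay at a level of at least 5, where 0 of the 1548 other genes were higher or lower by 2-fold. None of the members differed 1.2-fold either, against 23.0% of all measured genes and 5.1% of those 1548 genes. The median difference of the members was -0.065, with an SD across genes of 0.053 and a range of -0.21 to 0.094. Probes printed 10 times on each array gave the technical SD of such a difference. The 15 of them at a level of at least 5 had a median SD of 0.057 and a highest of 0.11. Smoothed over level, the SD was 0.052 to 0.058 at the members' levels. By that measure 32 of the 78 members differed by less than 1 spot SD. So did 8366 of all 22134 measured genes and 538 of the 1548 other genes at a level of at least 5. By its chosen probe only 1 member, Rps21, differed by more than 3 spot SD, against 19.0% of all measured genes and 19.8% of those other genes. This spot SD holds the error of printing and reading an array, and none of the variation between animals or preparations.

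A total of 10 chosen probes lay in patches of the slide, and without patch probes 11 members were higher and 65 lower, with a median of -0.064.

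With this scaling 67 members were lower and 11 higher in CSE-KO, but with quantile normalization 42 were lower and 36 higher, and the median was then -0.0060. Among all measured genes 51.3% were lower by any amount, and among the other genes at a level of at least 5 the share was 67.0%, with a median of -0.045. The members' median thus lay 0.020 below that of other bright genes. In 1-unit bands of level, the members' median was 0.015 (7 genes) against -0.036 for other genes between 5 and 6. It was -0.054 (28 genes) against -0.047 between 6 and 7, -0.075 (32 genes) against -0.054 between 7 and 8, and -0.067 (11 genes) against -0.032 between 8 and 9.

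**Figure D2:**
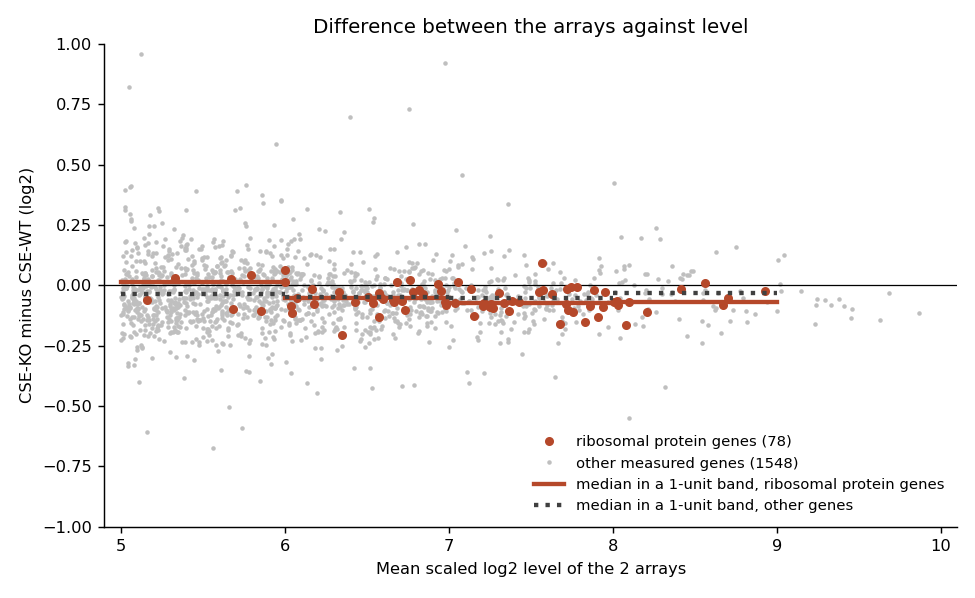
Difference CSE-KO minus CSE-WT (log2, vertical axis) against mean level (horizontal axis) for the 78 ribosomal protein genes (coloured circles) and the 1548 other measured genes at a level of at least 5 (grey dots). Horizontal bars are medians in 1-unit bands, solid for the ribosomal protein genes and dotted for other genes: the ribosomal protein genes lie in a narrow band inside the spread of the others (SD 0.053 against 0.136).

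In the large subunit 46 members were measured, 6 higher and 40 lower in CSE-KO, with a median of -0.063. Rpl9, which lies near the factor-binding site of the ribosome, had a level of 8.00 in CSE-KO and 8.16 in CSE-WT, a difference of -0.16 with a spot SD of 0.057, and its second probe gave -0.12. Rpl11, which joins Rpl5 and 5S rRNA in a particle that can bind MDM2, was at 7.85 in CSE-KO and 7.98 in CSE-WT, and its 3 probes gave -0.13 to -0.19. Rpl5 itself was at 6.01 in CSE-KO and 5.99 in CSE-WT, a difference of 0.015 from a single probe, within 1 spot SD of 0. Rpl24, whose mouse mutant has a belly spot and tail defects, was at 7.09 in CSE-KO and 7.22 in CSE-WT, with 3 probes between -0.089 and -0.13.

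At the other end of the large subunit stood Rpl13, at 7.62 in CSE-KO and 7.52 in CSE-WT, a difference of 0.094. Its 4 probes ran from -0.17 to 0.094, with both signs equally often, and its chosen probe lay in a patch of neighbouring spots that differed strongly between the arrays. Rpl28 (0.016) and Rpl5 were also higher, each within 1 spot SD of 0.

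The ribosomal stalk, the flexible arm that recruits elongation factors, consists of Rplp0 as its base and the Rplp1 and Rplp2 proteins as its arms. Rplp0 was at 8.57 in CSE-KO and 8.56 in CSE-WT, and its 3 probes lay between -0.090 and 0.050. Rplp1 was at 6.77 in CSE-KO and 6.79 in CSE-WT. Rplp2 was at 7.60 in CSE-KO and 7.76 in CSE-WT, a difference of -0.16 with a spot SD of 0.056. Rplp1 and Rplp2 each rested on a single probe, and Rplp2 was the only stalk gene beyond 1 spot SD. Rplp0 is widely used as a reference gene in PCR, and its level in CSE-KO was 100.6% of that in CSE-WT.

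The 4 large-subunit genes with the brightest probes, Rpl10, Rpl41, Rplp0 and Rpl37a, differed by between -0.051 and 0.0092. Rpl10, which helps place the transfer RNA, was at 8.92 in CSE-KO and 8.94 in CSE-WT, and Rpl41, the smallest ribosomal protein, at 8.68 in CSE-KO and 8.73 in CSE-WT. Rpl37a was at 8.41 in CSE-KO and 8.42 in CSE-WT. The dimmest measured was Rpl36a, at 5.13 in CSE-KO and 5.19 in CSE-WT, with 3 probes all lower (-0.062 to -0.17). Rpl22, a protein that also binds RNA outside the ribosome, was at 5.80 in CSE-KO and 5.91 in CSE-WT, and its dimmer probe gave 0.0016.

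In the small subunit all 32 members were measured, 5 higher and 27 lower in CSE-KO, with a median of -0.068. Rps21, which in budding yeast is needed for the last processing steps of small-subunit RNA, was at 6.24 in CSE-KO and 6.45 in CSE-WT. Its difference of -0.21 was 3.87 times its smoothed spot SD, and it rested on 1 probe printed once. Under the 13 other ways of processing Rps21 stayed lower (-0.24 to -0.14). Rps24, at 7.75 in CSE-KO and 7.91 in CSE-WT, had 4 probes that were all lower (-0.055 to -0.15). Rps15a, at 5.99 in CSE-KO and 6.10 in CSE-WT, had both probes lower (-0.093 and -0.11). Rps24 is a gene in which human mutations cause Diamond-Blackfan anaemia, a failure of red cell production.

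Rps19, the gene most often mutated in that anaemia, lay on the other side, at 5.35 in CSE-KO and 5.32 in CSE-WT, a difference of 0.032. Rps15, a protein near the decoding centre, was the highest of the small subunit, at 6.04 in CSE-KO and 5.97 in CSE-WT, and it was the only member with several probes that were all higher (0.031 and 0.065). Rps27l (0.025) and Rps23 (0.023) completed the highest 4. Rps14 was at 8.63 in CSE-KO and 8.71 in CSE-WT, and Rpsa, also known as the laminin receptor, at 8.06 in CSE-KO and 8.13 in CSE-WT. Rps20, Rps10 and Rps7 differed by -0.082, -0.068 and -0.013. Rps18, used as a reference gene in many PCR studies, was at 5.64 in CSE-KO and 5.74 in CSE-WT, and its second probe gave 0.071.

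Of the 42 measured members outside the naming rule, which takes the highest and lowest of each subunit and so leaves those in between, 40 were lower and 2 higher in CSE-KO, with a median of -0.065. They ran from -0.11 in Rpl38, whose loss in mice alters the axial skeleton, to 0.012 in Rps26. By the chosen probe none reached 2 spot SD.

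**Figure D3:**
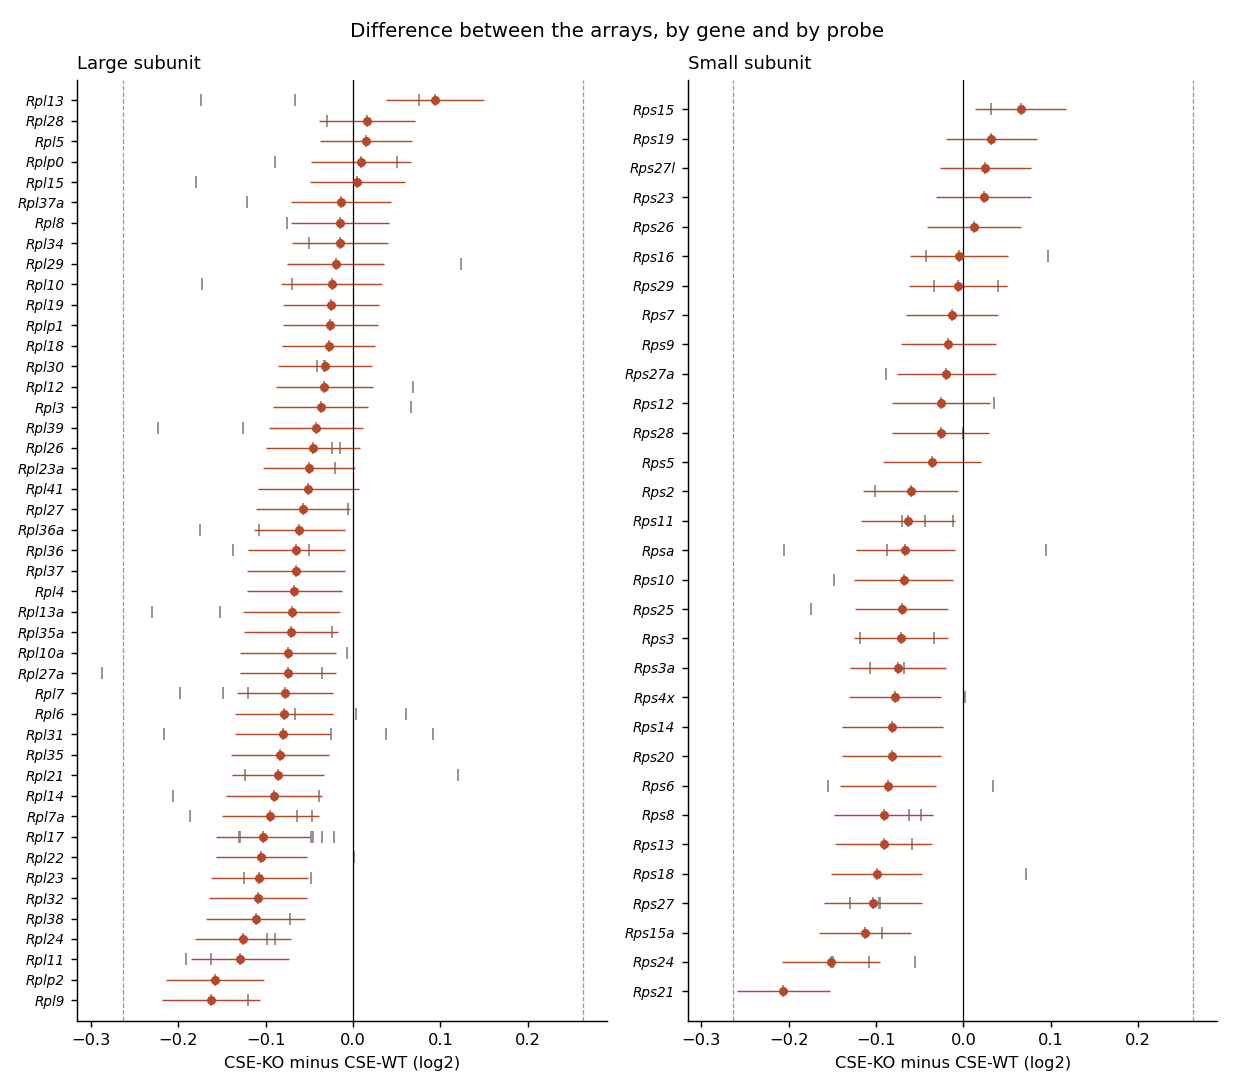
Difference CSE-KO minus CSE-WT (log2, horizontal axis) of 76 measured genes, large subunit left and small subunit right. Circles are the chosen probe with 1 spot SD as the bar, grey ticks are all measured probes of the gene, and dashed lines mark 1.2-fold. Every circle lies inside the dashed lines, and 1 tick, a dimmer probe of Rpl27a at -0.29, lies outside.

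Among the paralog pairs, Rps27l was at 5.68 in CSE-KO and 5.66 in CSE-WT (0.025), and Rps27 at 7.68 in CSE-KO and 7.78 in CSE-WT (-0.10), with all 4 Rps27 probes lower (-0.096 to -0.13). The files place the chosen probes of Rps27 and Rps29 on another chromosome than the gene, as they do for 11 of 178 measured member probes, so their signal cannot be assigned to 1 locus. Rpl39 differed by -0.042, and its 3 probes ran from -0.042 to -0.22. Rpl3 differed by -0.037 and its second probe by 0.066. Rpl7 differed by -0.078, with 4 probes all lower, and its relative Rpl7l1, outside the name pattern, by -0.031. Rpl22l1, the relative that can replace Rpl22, was at 5.77 in CSE-KO and 5.99 in CSE-WT, a difference of -0.22 with a spot SD of 0.052 and a single probe. Rpl36al was at 6.34 in CSE-KO and 6.37 in CSE-WT. The X-linked Rps4x differed by -0.078 with its second probe at 0.0014, and Rps4l by -0.057. Rpl26, known to bind p53 mRNA, differed by -0.046 with all 3 probes lower.

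Probes of 1 gene differed from each other by about the spot error. Of the 57 members with several measured probes, 37 had every probe lower in CSE-KO, 1 every probe higher and 19 both signs. The SD between probes of a gene had a median of 0.047, about the size of the spot SD, and reached 0.14 in Rpl27a. The widest range was that of Rpl31, whose 5 probes ran from -0.22 to 0.091. No probes of 1 member differed from each other by 1 log2 unit. Over all 179 measured member probes, 148 were lower and 31 higher. The other 7 member probes were not well above background on either array.

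Rpl23, which like Rpl5 and Rpl11 can bind MDM2, had a probe printed 10 times. Its spots averaged 2.67 ± 0.023 in CSE-KO and 2.79 ± 0.029 in CSE-WT (SD, n = 10 spots of 1 array each), ranging over 2.62 to 2.70 in CSE-KO and 2.74 to 2.84 in CSE-WT. The difference of -0.12 had an SE of 0.012 over spots. Spots of 1 array are not replicates of a genotype, so this SE leaves out variation between animals and preparations and the choice of scaling. The chosen probe of Rpl23 gave -0.11 and its remaining probe -0.048, each printed once.

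The dimmer probes of the family were lower than the bright ones, a split made after the values had been seen. Of the 24 measured member probes at a level under 5, from 20 genes, 21 were lower and 3 higher in CSE-KO, with a median of -0.13. By more than 3 spot SD, 6 of these 24 were lower. The 155 brighter member probes had a median of -0.060. The 27871 probes of other genes in the same range of level had a median of 0.0041, with 49.0% lower. In 17 of the 24 cases the dim probe lay downstream of the chosen probe of its gene along mm9, and in 7 upstream, and 16 of the 24 gave a lower difference than the chosen probe. The lowest were Rpl27a (4.43 in CSE-KO, 4.71 in CSE-WT), Rpl13a (3.39 in CSE-KO, 3.62 in CSE-WT) and Rpl39 (-1.69 in CSE-KO, -1.47 in CSE-WT). Which transcripts these probes read was not tested.

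Further probes could read the same transcripts, because ribosomal protein genes have many processed copies in the genome. A total of 62 probes with other names shared at least 30 bases with a member probe. All 62 were measured, and 52 were lower and 10 higher, with a median of -0.053 and a range of -0.38 to 0.086. No probes of different members shared 30 bases. The 40 measured member probes that span an intron on the genome had a median of -0.034, and the 138 others placed on the genome -0.068. The members lie on 19 chromosomes, 14 of them on chromosome 7.

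A list made for members with a bacterial counterpart had 39 measured, 5 higher and 34 lower, with a median of -0.064. The members outside this list had 39 measured, 6 higher and 33 lower, with a median of -0.065. The list also held Rpl7a, Rpl15, Rpl19 and Rpl30, which lack such a counterpart, so the split was not a clean one. A further 8 genes of the ribosome, listed because their names mostly fall outside the pattern, were all lower with this scaling, with a median of -0.063. Rpl36a, already given, fits the pattern and is counted in both. Rack1, a scaffold on the small subunit, was at 7.70 in CSE-KO and 7.85 in CSE-WT (-0.15). Fau, made as a fusion with a ubiquitin-like protein, differed by -0.065. The median of these 8 stayed below 0 under the other scalings (-0.10 to -0.020).

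Genes that work with the ribosome were read from lists. Of 22 other mRNAs with a TOP start, 8 were higher and 14 lower, with a median of -0.058 that ran from -0.096 to 0.0093 under other processing. None passed 2-fold and 1 passed 1.2-fold, against 23.0% of all measured genes. This was the nucleolar chaperone Npm1 (5.16 in CSE-KO, 5.44 in CSE-WT), whose 5 probes ran from -0.28 to 0.00020. Eif4a2, a helicase of initiation, differed by -0.23, and Btf3, a subunit of the nascent polypeptide complex, by -0.17. Of 31 initiation factors, 9 were higher and 22 lower (median -0.082, and -0.12 to -0.035 under other processing), with 2 higher and 3 lower by 1.2-fold, against 12.4% and 10.6% of all measured genes. Eif4g1, the scaffold of the cap-binding complex, was at 5.18 in CSE-KO and 4.87 in CSE-WT (0.31), and Eif2s3x, the gamma subunit of eIF2, at 0.67 in CSE-KO and 0.97 in CSE-WT (-0.30). Eif5b, near the lower end of measurable signal, differed by -0.41 with a spot SD of 0.34.

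Of 46 measured ribosome biogenesis factors, 18 were higher and 28 lower (median -0.080, and -0.12 to -0.046 under other processing), 7 of them lower by 1.2-fold and none higher by 1.2-fold, against 10.6% and 12.4% of all measured genes. Nhp2, a core protein of H/ACA small nucleolar particles, was at 2.63 in CSE-KO and 3.12 in CSE-WT (-0.49), 8.86 times its spot SD. Gnl3, the nucleolar protein nucleostemin, was at 1.33 in CSE-KO and 1.66 in CSE-WT (-0.33). Rrp9, a protein of the U3 particle, differed by -0.52 in a patch of the slide. Mitochondrial ribosomal proteins, the family closest in name, had 12 genes higher and 66 lower of 78 measured, with a median of -0.079 that stayed between -0.12 and -0.045 under other processing. Mrpl3 (-0.30), Mrpl53 (-0.26) and Mrpl39 (-0.22) differed most, but the second Mrpl39 probe gave 0.18 and the mean of its probes -0.025.

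Of 27 regulators of ribosomal protein synthesis, 14 were higher and 13 lower (median 0.039, and 0.0013 to 0.074 under other processing). By 1.2-fold 4 were higher and 1 lower, against 12.4% and 10.6% of all measured genes, and the lowest differed by -0.27. Ddit4, an inhibitor of mTORC1, was at 3.83 in CSE-KO and 3.49 in CSE-WT (0.34). Tsc2, another inhibitor, was at -2.67 in CSE-KO and -2.97 in CSE-WT (0.30, spot SD 0.19), and Rps6kb2, a kinase of the ribosomal protein Rps6, at 0.24 in CSE-KO and -0.052 in CSE-WT. Of 13 measured genes of the p53 response, 9 were higher and 4 lower (median 0.14, and 0.071 to 0.17 under other processing). None reached 2-fold and 4 were higher by 1.2-fold, against 12.4% of all measured genes. The list holds general regulators and targets of p53, and whether free ribosomal proteins acted on them was not tested. Cdkn1a, the cell-cycle inhibitor p21, was at 2.68 in CSE-KO and 1.74 in CSE-WT, a difference of 0.94 from a probe with at least 1 of its 10 spots in a patch. Mdm4, an inhibitor of p53, differed by 0.50 with its second probe at -0.0098, and Phlda3, a p53 target, by 0.34.

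**Figure D4:**
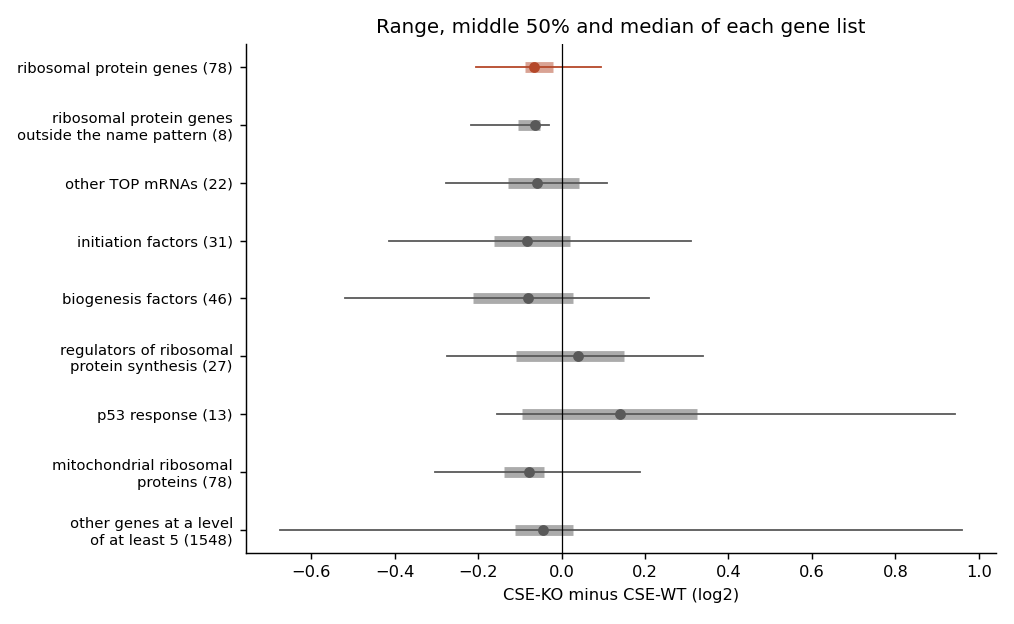
Difference CSE-KO minus CSE-WT (log2, horizontal axis) for each gene list, with the number of measured genes in brackets. Thin lines are the range, thick bars the middle 50% of genes and circles the median: the ribosomal protein genes span -0.21 to 0.094, and the p53 response, with a median of 0.14, reaches 0.94.

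The median of the family stayed below 0 under each of the 13 alternatives, but its size changed with the scaling. It was -0.10 when the arrays were scaled on spike-in controls, -0.031 with the median of gene probes and -0.0034 with cyclic loess. In the authors' deposited table it was -0.0033, with 35 members higher and 40 lower. No member passed 2-fold or 1.2-fold in any of these 4. Of the named members, 14 were lower in each of 13 alternatives, Rps21, Rpl9, Rplp2, Rps24, Rpl11 and Rpl24 among them, and 1, Rps15, was higher in each. The genes given here were named for the lowest or highest differences on the same 2 arrays. Their kept sign is therefore no separate support, and no such share over all measured genes is given. Rpl13 ran from -0.066 to 0.17.

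**Figure D5:**
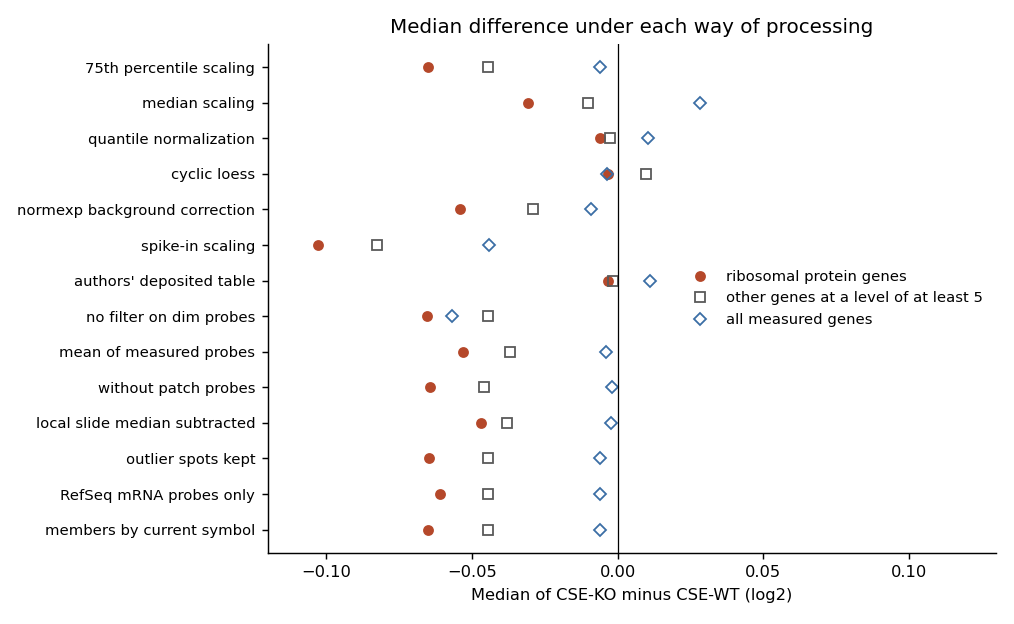
Median difference CSE-KO minus CSE-WT (log2, horizontal axis) of the ribosomal protein genes (filled circles), other genes at a level of at least 5 (open squares) and all measured genes (open diamonds) under each way of processing (rows). The ribosomal protein genes range over -0.10 to -0.0033 and lie below the other bright genes in each row.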

How the data were processed

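The arrays were scanned and quantified by the authors with Agilent Feature Extraction, version 10.7.1.1 per the file headers and 9.5.1.1 per the submitters' processing notes. The deposited files give a processed Cy3 intensity per spot, spatially detrended, with flags for outliers, saturation and signal well above background. Probe names and mm9 positions are those of the files, with current symbols from RefSeq for genes other than members. A deposited table from the authors holds probe intensities whose columns share a median of 37.7. These correlate with their own arrays at r = 0.9999 over probes, are on a linear scale and show no centring, and the exact steps behind them are unknown.

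From these, log2 was taken, outlier spots were dropped (169 in CSE-KO, 139 in CSE-WT of 59305 gene spots, none in members), spots of a probe were averaged and the 75th percentile was subtracted (540 units in CSE-KO, 519 in CSE-WT). A gene counted as measured with a probe well above background on both arrays (59.6% of probes in CSE-KO and 57.0% in CSE-WT passed). With 1 array per genotype, sizes of 2-fold, 1.2-fold and 3 spot SD took the place of a test, and precision is limited by the number of arrays. Spot SD came from a smooth over 277 measured probes printed 10 times, 15 of them at a level of at least 5. A patch is a spot with at least 2 others in a 5 by 5 window that differ by over 2 log2 units in 1 direction. Quantile normalization, cyclic loess and normexp used limma 3.58.1 in R 4.3.3, and the rest Python 3.11.15. The scripts were tested on simulated arrays.

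The members, gene lists and alternatives were chosen with earlier results of these data known. Named genes are the 4 highest, 4 lowest, 4 brightest and 4 dimmest of each subunit, the stalk, the paralog pairs, Rpl5, Rpl11, Rpl23, Rps7, Rps19 and Rpsa, and the 3 largest differences of each further list. Rpl27a, Rpl31, Rpl13a, Rpl38, Rps26 and Rps29 were picked after their values were seen. Some genes that the rule names are not reported here.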

Additional observations from a re-analysis of the deposited data

How the results depend on the processing

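The median of the ribosomal protein genes, -0.065, was -0.0060 with quantile normalization, -0.0034 with cyclic loess and -0.0033 in the authors' deposited table, and ran from -0.10 to -0.031 under the other alternatives. The counts of higher and lower members were 36 and 42 with quantile normalization and with cyclic loess, and 35 and 40 in the deposited table. Members higher in CSE-KO numbered 28 with median scaling, 18 with normexp and 3 with spike-in scaling, against 11. Without the filter on dim probes, 1 member, Rpl3l, passed 2-fold and 3 passed 1.2-fold. These were the 3 unmeasured members Rpl3l, Rpl10l and Rpl39l, near background on both arrays. All genes past 2-fold then numbered 2564. That count was 133 with normexp and 212 without patch probes, against 356. In all, 17 of 78 main results and 102 of 817 values of single genes and background medians moved, and none of those past 3 spot SD changed sign. No paired analysis was possible because each genotype had 1 array and the labels give no replicate numbers. The slide could not be a block, since both arrays lay on 1 slide, and no replicate could be left out. The cause of these shifts was not tested. One spot SD, as smoothed over level, was about 0.052 to 0.058 at the members' levels. Differences within 3 spot SD were not set apart from spot noise. With the main scaling only Rps21 among the members passed that size by its chosen probe. Other probes passed it too, among them 6 member probes at a level under 5 and brighter probes of Rpl11 (-0.19) and Rpl7 (-0.20).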
